A study of Mus musculus with 36 samples.

Results

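The comparison described here sets FMR1-KO against WT mice in the ribosome-protected fragments (RPFs) of fraction 5/6 prepared with the low nuclease protocol. The 3 FMR1-KO and the 3 WT libraries of that fraction and protocol were taken by their labels, which makes 6 of the 36 libraries in the series. Cdk8 was dropped before normalization, and 15739 genes with enough counts were compared.

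Brains of 5 day old mice of both sexes were homogenized and spun through a sucrose gradient, and 10 brains were pooled for each preparation. The WT mice were C57BL/6 and the FMR1-KO mice carried the FMR1-/y allele, which leaves the mice without the protein FMRP. The labels name no drug or other agent for either group. The low nuclease preparation, called "control" in the labels, used 2.5 mM MgCl2 and digestion with RNase I in the cold, whereas the standard preparation used 10 mM MgCl2. Fraction 5/6, labelled "Polysome", holds the ribosome clusters of the gradient that did not pellet, and the pellet holds the densest clusters. The RPFs of the 3 replicates of 1 group received different linkers and were pooled before reverse transcription and amplification, so the library pool and the genotype cannot be told apart. The study describes its replicates as biological preparations, so p-values measure the spread between preparations of pooled brains.

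FMRP, the product of Fmr1, is an RNA-binding protein that associates with translating ribosomes and whose loss causes fragile X syndrome. In neurons, clusters of paused ribosomes travel with their mRNA in RNA granules, and a dense pellet of a brain gradient is enriched for such granules. The lighter ribosome clusters of fraction 5/6 are commonly read as ordinary polysomes, and RPFs from them report where and on which mRNAs ribosomes sat.

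The libraries held 25756943 to 62310787 counted reads, and Cdk8 alone took 2.69 to 5.62% of them. Without Cdk8, the 10 most abundant genes took 10.7 to 13.2% of a library. Levels are given as CPM, the counts of a gene scaled to a library of 1000000 reads. Across genes the Spearman correlation of log CPM was 0.953 to 0.971 within a genotype and 0.952 to 0.974 between genotypes, so no library stood apart by genotype. Markers of excitatory neurons summed to 780 to 975 CPM in WT and to 837 to 1014 CPM in FMR1-KO, and of 12 cell type marker lists none had a member that passed the test. By the median over markers of log2 CPM minus the WT mean, 1 of the 12 lists did not overlap between genotypes, that of 8 inhibitory neuron markers, at 0.09, 0.00 and -0.14 in WT and at 0.20, 0.23 and 0.26 in FMR1-KO. The part of these markers in the results was not tested, and their summed levels overlapped, at 446, 515 and 359 CPM in WT and 495, 477 and 525 CPM in FMR1-KO. Microglia markers summed to 483 CPM in WT replicate 1 and to 166 to 217 CPM in the other 5 libraries. Of 6 liver markers 2 were measured, and the liver apolipoprotein gene Apoa1 stood at 0.18 to 0.29 CPM. Of 9236 genes with a mean of at least 10 CPM, 357 differed at least 10-fold among the 3 libraries of a genotype. Zfp740 was the most extreme of these in level, at 12254, 9739 and 19848 CPM in WT and at 11249, 33.4 and 14655 CPM in FMR1-KO, and was named after its values were seen. The part of this spread in the results was not tested, and values are therefore given library by library.

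Fmr1 was first read as a check of the labels. Its RPFs stood at 95.2, 93.3 and 111 CPM in the 3 WT libraries and at 10.4, 8.20 and 6.91 CPM in the 3 FMR1-KO libraries. All 3 FMR1-KO libraries lay far below all 3 WT libraries. The mean was 99.96 ± 9.94 CPM in WT and 8.49 ± 1.75 CPM in FMR1-KO (SD, n = 3 each), a log2 fold change of -3.56 (SE 0.187, adjusted p = 0.00582, quasi-likelihood test of edgeR, Benjamini-Hochberg). The Fmr1 gene (ENSMUSG00000000838) lies on the + strand at chrX:68678541-68717963 of GRCm38. Summed over libraries, FMR1-KO kept 8.35% of the WT reads on Fmr1 (95% exact interval 7.87 to 8.87%, which covers counting error only).

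Of the 15739 genes, 7, or 0.0445%, passed an adjusted p of 0.05, of which 3 were higher in FMR1-KO (0.0191%) and 4 were lower (0.0254%). In simulated libraries the same test found 8 of 100 genes changed 2-fold, so few calls do not show that few genes changed. At an unadjusted p under 0.05 there were 1345 genes, or 8.55%, with 697 higher and 648 lower. The 3 libraries of the one genotype lay wholly above or wholly below those of the other at 2455 genes (15.6%), with FMR1-KO above at 1332 genes (8.46%) and below at 1123 (7.14%). The median log2 fold change over all genes was -0.0003, with an interquartile range of -0.17 to 0.16. Of the 7 genes, 5 had a mean of 1 to 10 CPM, 1 lay between 10 and 100 CPM and 1 above 100 CPM. With DESeq2 198 genes passed, 79 higher and 119 lower, and 1 gene passed when the replicate number was a block, so the number of calls depended on the test. Without WT replicate 3 the number was 23, without FMR1-KO replicate 2 it was 16, and without FMR1-KO replicate 1 it was 11.

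**Figure D1:**
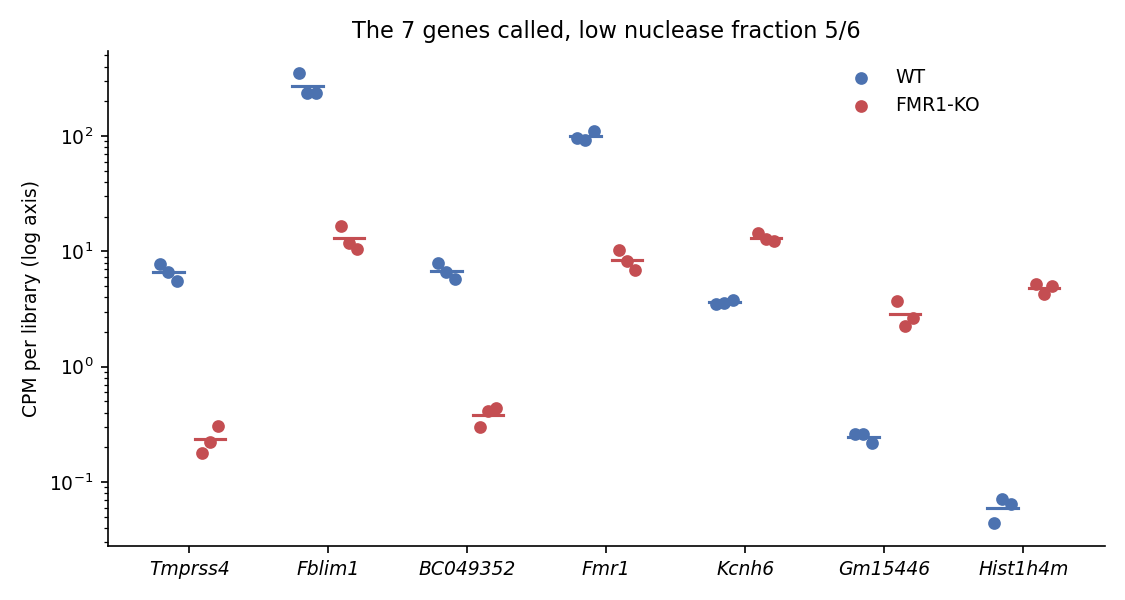
CPM on a log axis for each of the 7 genes that passed the test, with 1 point for each of the 3 WT and 3 FMR1-KO libraries of low nuclease fraction 5/6 and bars at the group means. The genotypes do not overlap at any of the 7 genes, and the gap is widest for Hist1h4m, which had 1 to 3 reads in each WT library.

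**Figure D2:**
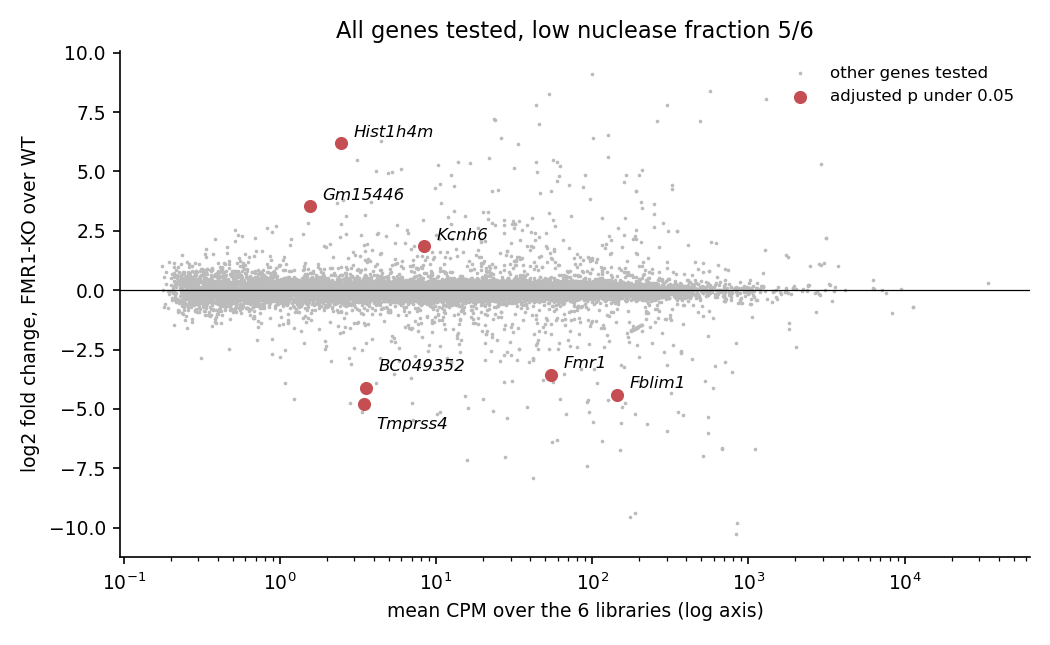
Log2 fold change (FMR1-KO over WT) of each tested gene against its mean CPM on a log axis, with the 7 genes that passed the test named. The interquartile range of the genes is -0.17 to 0.16, and 5 of the 7 named genes have a mean between 1 and 10 CPM.

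The genes that rose in FMR1-KO were Hist1h4m, which encodes histone H4, Gm15446, a predicted gene, and Kcnh6, which encodes a voltage-gated potassium channel of the ether-a-go-go related family. Each was also higher in the standard RNA-seq of whole brain, where 12 of 16333 genes (0.0735%) passed, these 3 among them. The log2 fold change there was 4.79 for Hist1h4m, 3.43 for Gm15446 and 1.21 for Kcnh6. The difference between RPFs and this RNA-seq passed the interaction test for 14 of 16516 genes (0.0848%) but for none of these 3 (adjusted p = 0.620, 0.994 and 0.312, in the same order, edgeR quasi-likelihood test). These adjusted p-values do not show that the changes were equal.

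Hist1h4m (ENSMUSG00000069306; chr13:21811746-21812147, + strand) is one of 13 histone H4 genes found in the annotation (GENCODE M21 names), most of them in clusters on chromosome 13. It had 1, 3 and 3 reads in WT and 208, 270 and 195 reads in FMR1-KO. As CPM these are 0.044, 0.071 and 0.065 CPM in WT and 5.25, 4.29 and 4.99 CPM in FMR1-KO. WT libraries were at or below 3 reads, and each FMR1-KO library was well above them. The log2 fold change was 6.20 (SE 0.242, adjusted p = 0.00270, edgeR quasi-likelihood test), and the ratio of the summed counts, scaled to library size, was 75.2 (95% exact interval 36.3 to 188, counting error only). In the low nuclease pellet Hist1h4m stood at 0.000, 0.024 and 0.055 CPM in WT and at 2.08, 1.55 and 2.57 CPM in FMR1-KO, and in standard RNA-seq at 0.364, 0.991 and 1.21 CPM in WT and at 19.5, 34.5 and 17.8 CPM in FMR1-KO. The order of the genotypes was the same in both, and the pellet change did not pass (adjusted p = 0.0703, edgeR).

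The reads of Hist1h4m could not be told from those of its neighbour Hist1h4n by coding sequence. The first coding bases after the start codon (bases 4 to 33, read 5′ to 3′ on the coding strand of GRCm38) are shown as a short stretch in which the H4 genes can be compared. A length of 30 bases was chosen here, and RPFs of the low nuclease protocol may be longer. Capitals mark the 5 bases at which Hist1h4m differs from Hist1h4h, one of the 2 H4 genes closest to it after Hist1h4n.
Hist1h4m (chr13:21811787-21811816, + strand): tctggtcgtggcaaAggAggAaaaggCctG
Hist1h4n (chr13:21832126-21832155, - strand): tctggtcgtggcaaAggAggAaaaggCctG
Hist1h4h (chr13:23531118-23531147, + strand): tctggtcgtggcaaGggCggTaaaggTctT
The full coding sequences of Hist1h4m and Hist1h4n, 312 bases with the stop codon, had 0 differences, and those of the other H4 genes differed from Hist1h4m at 10 to 42 bases. Of 373 windows of 30 bases in the Hist1h4m transcript, 30 were found in no other gene, and none of its 283 coding windows was. For Hist1h4n 49 of 401 windows were found in no other gene, again 0 of 283 in the coding sequence.

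Hist1h4n (ENSMUSG00000069305; chr13:21831767-21832196, - strand) lies 19620 bases from Hist1h4m and was lower in FMR1-KO by value. It stood at 2.46, 1.85 and 2.01 CPM in WT and at 0.807, 0.986 and 0.947 CPM in FMR1-KO. The groups did not overlap, but the log2 fold change of -1.19 did not pass the test (adjusted p = 0.483, edgeR quasi-likelihood test). Hist1h4n was named after its values were seen, because of its sequence. How the authors' counting assigned reads that match both genes was not tested, and the value of Hist1h4m is uncertain to that extent. The 28 tested genes within 500 kb of Hist1h4m, many of them other histone genes, ranged from -1.19 to 0.86 on the log2 scale with a median of 0.07.

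Kcnh6 (ENSMUSG00000001901; chr11:106008124-106034549, + strand) stood at 3.51, 3.56 and 3.77 CPM in WT and at 14.4, 12.8 and 12.2 CPM in FMR1-KO. The libraries of each genotype lay close together and the groups were well apart. The log2 fold change was 1.86 (SE 0.120, adjusted p = 0.00954, edgeR quasi-likelihood test), and the ratio of summed counts was 3.59 (95% exact interval 3.22 to 4.01). In the low nuclease pellet Kcnh6 stood at 4.46, 3.64 and 4.12 CPM in WT and at 10.4, 8.41 and 9.33 CPM in FMR1-KO. That is a log2 fold change of 1.21 in the same direction, which did not pass the test (adjusted p = 0.186, edgeR quasi-likelihood test). In standard fraction 5/6 it stood at 2.19, 2.34 and 5.87 CPM in WT and at 4.33, 4.98 and 7.14 CPM in FMR1-KO, with overlap through WT replicate 3, a library whose Fmr1 goes against its label. Kcnh6 did not pass without WT replicate 1 (adjusted p = 0.0520), WT replicate 2 (0.0964) or FMR1-KO replicate 3 (0.0555), in the same edgeR test.

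Gm15446 (ENSMUSG00000090015; chr5:109923400-109943936, + strand) had 6, 11 and 10 reads in WT and 148, 142 and 103 reads in FMR1-KO. As CPM these are 0.263, 0.261 and 0.218 CPM in WT and 3.73, 2.26 and 2.64 CPM in FMR1-KO, with no overlap. The log2 fold change was 3.53 (SE 0.284, adjusted p = 0.0304, edgeR quasi-likelihood test), and the ratio of summed counts was 11.4 (95% exact interval 7.71 to 17.5). Gm15446 stood at 0.164, 0.120 and 0.409 CPM in the WT pellets and at 3.54, 1.88 and 1.88 CPM in the FMR1-KO pellets of the low nuclease preparation. In the standard RNA-seq it stood at 1.14, 1.06 and 0.806 CPM in WT and at 11.1, 11.5 and 9.75 CPM in FMR1-KO. Within each of these 3 kinds of library, every FMR1-KO value lay above every WT value, though the pellet change did not pass (adjusted p = 0.428, edgeR). In standard fraction 5/6 Gm15446 stood at 0.173, 0.334 and 0.966 CPM in WT and at 2.85, 0.528 and 1.27 CPM in FMR1-KO, where WT replicate 3 again lay above FMR1-KO replicate 2. It was the least stable of the 7 calls: it did not pass without WT replicate 1 (adjusted p = 0.111), WT replicate 2 (0.226), WT replicate 3 (0.0858) or FMR1-KO replicate 3 (0.105), in the same edgeR test, or with limma voom (0.0970).

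Besides Fmr1, the genes that fell in FMR1-KO were Fblim1, which encodes a LIM-domain protein that binds filamin at cell contacts, and Tmprss4 and BC049352, which share a locus. None of these 3 passed the test in the standard RNA-seq of whole brain, and for all 3 the genotype change in RPFs differed from that in standard RNA-seq by the interaction test. Against the RNA-seq of the low nuclease preparation, where 0 of 16176 genes passed that edgeR test and 843 had an unadjusted p under 0.05, the difference was -4.11 for Fblim1 (adjusted p = 0.0671), -5.88 for Tmprss4 and -5.31 for BC049352 on the log2 scale, in the same direction.

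Fblim1 (ENSMUSG00000006219; chr4:141576062-141606096, - strand) was the most abundant gene that passed. Its RPFs stood at 350, 237 and 235 CPM in WT and at 16.7, 11.8 and 10.4 CPM in FMR1-KO. Each FMR1-KO library lay more than 10-fold below each WT library. The log2 fold change was -4.40 (SE 0.280, adjusted p = 0.00954, edgeR quasi-likelihood test), and FMR1-KO held 4.93% of the WT reads (95% exact interval 4.69 to 5.17%). Without FMR1-KO replicate 3 the adjusted p was 0.0516 in the same edgeR test.

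In 3 other sets of libraries Fblim1 stood far below the WT level of low nuclease fraction 5/6. In the low nuclease pellet it stood at 11.001, 11.852 and 8.044 CPM in WT and at 9.64, 8.37 and 8.33 CPM in FMR1-KO. In standard nuclease fraction 5/6 it stood at 9.67, 7.01 and 8.69 CPM in WT and at 9.91, 8.67 and 12.2 CPM in FMR1-KO. In standard RNA-seq it stood at 26.4, 21.4 and 15.9 CPM in WT and at 22.7, 15.4 and 24.2 CPM in FMR1-KO. The 3 WT libraries of low nuclease fraction 5/6 were thus the high ones, and in the other 3 sets the genotypes overlapped. The genotype change in low nuclease fraction 5/6 differed from that in the standard preparation by -4.64 on the log2 scale (adjusted p = 0.00104), from that in the low nuclease pellet by -4.15 (adjusted p = 0.00249) and from that in RNA-seq by -4.42 (adjusted p = 0.000583, edgeR quasi-likelihood interaction tests). Fblim1 was the only gene of 15122 (0.00661%) to pass the interaction with the preparation and one of 3 in 15929 (0.0188%) to pass that with the fraction.

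Spen, a transcriptional repressor gene that lies 37465 bases from Fblim1 on the same strand (chr4:141467890-141538597), also had lower values in FMR1-KO in low nuclease fraction 5/6. It stood at 393, 282 and 285 CPM in WT and at 55.9, 80.2 and 58.2 CPM in FMR1-KO. The groups did not overlap, and the log2 fold change of -2.30 did not pass the test (adjusted p = 0.0613, edgeR quasi-likelihood test), but passed in 4 alternatives: DESeq2, limma voom, the fit of all 4 low nuclease groups and the GC offset. In the low nuclease pellet Spen stood at 110, 119 and 90.5 CPM in WT and at 122, 93.0 and 94.0 CPM in FMR1-KO, with overlap. In standard fraction 5/6 it stood at 25.0, 32.2 and 97.5 CPM in WT and at 23.9, 22.3 and 34.6 CPM in FMR1-KO, also with overlap. Its difference between the preparations, -1.32 on the log2 scale, did not pass (adjusted p = 0.587, edgeR quasi-likelihood test). The genotype change of Spen differed between fraction 5/6 and the pellet by -2.24 on the log2 scale (adjusted p = 0.0467, edgeR quasi-likelihood test), a difference that did not pass without WT replicate 2 (0.0674), FMR1-KO replicate 1 (0.169) or FMR1-KO replicate 3 (0.128). It also did not pass with library size alone (0.0843), with the stricter filter (0.0782) or with the replicate block (0.593), in the same edgeR test. Among the 25 tested genes within 500 kb of Fblim1, 6 had an unadjusted p under 0.05 and the median log2 fold change was 0.16.

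Tmprss4, a membrane-bound serine protease gene (ENSMUSG00000032091; chr9:45172726-45204092, - strand), and BC049352, a gene known by its cDNA clone (ENSMUSG00000091996; chr9:45182007-45250020, + strand), overlap over 22086 bases (chr9:45182007-45204092) on opposite strands. Tmprss4 had 177, 277 and 256 reads in WT and 7, 14 and 12 in FMR1-KO. BC049352 had 179, 279 and 266 reads in WT and 12, 26 and 17 in FMR1-KO. The counts of the pair were nearly equal in each WT library, whereas BC049352 had more reads than Tmprss4 in each FMR1-KO library. Whether counting used the strand is not given in the sources used here, so reads of the overlap cannot be told apart and the pair was read as 1 locus. In CPM Tmprss4 stood at 7.77, 6.56 and 5.58 in WT and at 0.177, 0.223 and 0.307 in FMR1-KO, with a log2 fold change of -4.80 (SE 0.267, adjusted p = 0.00582, edgeR quasi-likelihood test). BC049352 stood at 7.86, 6.61 and 5.80 CPM in WT and at 0.303, 0.413 and 0.435 CPM in FMR1-KO, with a log2 fold change of -4.12 (SE 0.226, adjusted p = 0.00582, same test).

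This locus took either of 2 levels in the low nuclease pellet and in standard fraction 5/6, with no order by genotype. In the low nuclease pellet Tmprss4 stood at 0.204, 5.36 and 0.218 CPM in WT and at 7.36, 0.325 and 5.02 CPM in FMR1-KO. In standard nuclease fraction 5/6 it stood at 7.39 CPM in FMR1-KO replicate 2 and at no more than 0.501 CPM in the other 5 libraries, and there it was not tested. In standard RNA-seq Tmprss4 stood at 0.213, 0.248 and 0.245 CPM in WT and at 0.122, 0.197 and 0.135 CPM in FMR1-KO, lower in each FMR1-KO library but low in all 6, and BC049352 overlapped between genotypes. The RPF change differed from that in RNA-seq by -4.22 on the log2 scale for Tmprss4 (adjusted p = 0.000583) and by -3.67 for BC049352 (adjusted p = 0.00414, edgeR quasi-likelihood interaction tests). With all 4 low nuclease RPF groups in 1 fit neither gene passed (adjusted p = 0.285 and 0.305, edgeR).

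**Figure D3:**
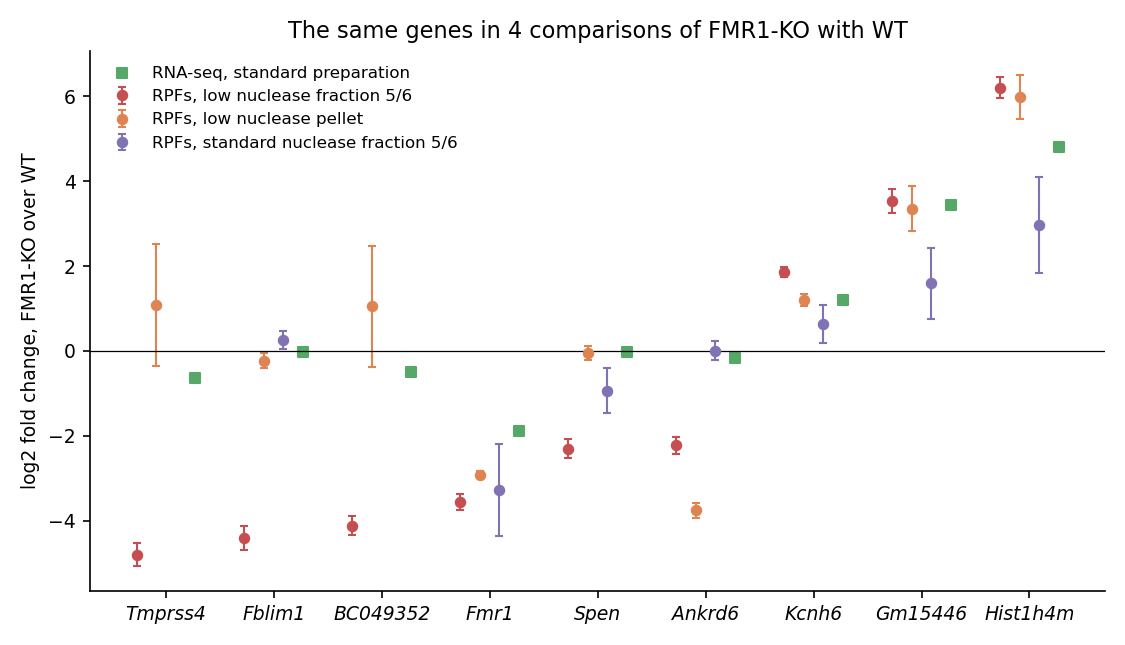
Log2 fold change (FMR1-KO over WT) with its SE for the 7 genes that passed and for Spen and Ankrd6, described beside them, in low nuclease fraction 5/6, in the low nuclease pellet, in standard nuclease fraction 5/6 and, without an SE, in standard RNA-seq. Hist1h4m, Gm15446 and Kcnh6 are above 0 and Fmr1 is below 0 in all 4 sets, whereas Fblim1 is far below 0 only in low nuclease fraction 5/6, and Tmprss4 and BC049352 were not tested in standard fraction 5/6, which includes its WT replicate 3.

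The change at Fmr1 itself was larger in RPFs than in RNA. In the standard RNA-seq Fmr1 stood at 61.7, 61.0 and 69.8 CPM in WT and at 16.4, 17.5 and 17.9 CPM in FMR1-KO, a log2 fold change of -1.90. The RPF change of low nuclease fraction 5/6 differed from it by -1.71 on the log2 scale (adjusted p = 0.00414, edgeR quasi-likelihood interaction test), and by -1.86 from that in the RNA-seq of the low preparation (adjusted p = 0.742, edgeR). With the replicate number as a block, the difference from standard RNA-seq was -1.72 and did not pass (adjusted p = 0.116, edgeR). In the low nuclease pellet Fmr1 stood at 59.3, 63.8 and 57.9 CPM in WT and at 7.57, 8.19 and 8.20 CPM in FMR1-KO, a log2 fold change of -2.92. It was one of 3 genes in 15263 (0.0197%) that passed there. In standard nuclease fraction 5/6 the library labelled WT replicate 3 held Fmr1 at 3.14 CPM, against 95.7 and 101 CPM in the other 2 WT libraries and 6.60 to 7.30 CPM in FMR1-KO, so Fmr1 goes against that label. Without that library 16 genes passed the interaction with the preparation in place of 1.

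The genes that passed were filled up to 10 in each direction with those of smallest p, which are given by value only. Of the 7 added on the higher side, Prkcq, a protein kinase C of T cells, stood at 31.0, 57.6 and 43.6 CPM in WT and at 209, 164 and 260 CPM in FMR1-KO. Its groups were apart, with a log2 fold change of 2.26 (adjusted p = 0.220, edgeR quasi-likelihood test), and in the low nuclease pellet it stood at 35.3, 55.9 and 49.1 CPM in WT and at 120, 188 and 184 CPM in FMR1-KO. In standard fraction 5/6 Prkcq overlapped, at 14.9, 18.2 and 15.7 CPM in WT and at 14.3, 14.2 and 20.5 CPM in FMR1-KO. Col5a3, a collagen gene, stood at 25.0, 12.1 and 10.7 CPM in WT and at 76.9, 60.2 and 72.2 CPM in FMR1-KO. Btaf1, a regulator of the TATA-binding protein, stood at 17.2, 26.4 and 15.9 CPM in WT and at 46.7, 50.6 and 50.4 CPM in FMR1-KO. Both were higher in every FMR1-KO library, with adjusted p = 0.483 and 0.467 (edgeR). In standard RNA-seq Col5a3 was low, at 0.461 to 0.522 CPM in WT and at 0.291 to 0.692 CPM in FMR1-KO. Zpbp2, a sperm protein gene, stood at 0.088, 0.237 and 0.000 CPM in WT and at 7.997, 8.743 and 9.518 CPM in FMR1-KO (adjusted p = 0.169, edgeR). Zpbp2 had no order by genotype in the low nuclease pellet, at 8.30, 6.90 and 11.6 CPM in WT and at 10.0, 9.34 and 0.083 CPM in FMR1-KO. In standard fraction 5/6 it ranged from 21.4 to 105 CPM in WT and from 0.228 to 146 CPM in FMR1-KO. The other 3, Iffo1, Kpna7 and Fgf21, had log2 fold changes of 0.91, 1.37 and 2.21. Prkcq, Col5a3, Btaf1, Iffo1 and Kpna7 passed with DESeq2 and with all 4 low nuclease groups in the fit.

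On the lower side Ankrd6, an ankyrin repeat protein linked to Wnt signalling, stood at 116, 75.6 and 111 CPM in WT and at 24.015, 21.953 and 18.755 CPM in FMR1-KO. Its log2 fold change of -2.22 missed the threshold narrowly (adjusted p = 0.0508, edgeR quasi-likelihood test), and it passed in 6 alternatives, among them DESeq2, the stricter filter and the GC offset. Ankrd6 fell in the low nuclease pellet, where it stood at 208, 258 and 167 CPM in WT and at 15.7, 15.7 and 15.4 CPM in FMR1-KO, a log2 fold change of -3.76 (adjusted p = 0.00573, edgeR). The genotypes were near each other in RNA-seq, at 58.8, 56.8 and 47.9 CPM in WT and 48.9, 42.0 and 54.5 CPM in FMR1-KO, and the RPF change differed from the RNA change by -2.10 on the log2 scale (adjusted p = 0.00508, edgeR interaction test). In standard fraction 5/6 it stood at 7.16 to 10.9 CPM in WT and at 8.08 to 9.35 CPM in FMR1-KO.

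The other lower genes by value were Spen, Slc5a11, Arap3, Grin3b and Cmah. Slc5a11, a sodium-coupled inositol transporter, stood at 263, 239 and 336 CPM in WT and at 46.4, 61.1 and 78.7 CPM in FMR1-KO. Grin3b, an NMDA receptor subunit, stood at 8.03, 5.38 and 3.82 CPM in WT and at 0.78, 1.03 and 1.15 CPM in FMR1-KO. Groups did not overlap for either, and neither passed (adjusted p = 0.141 and 0.252, edgeR). In standard RNA-seq both were low, Slc5a11 at 0.146 to 0.346 CPM in WT and at 0.150 to 0.241 CPM in FMR1-KO. Grin3b stood there at 0.364 to 0.830 CPM in WT and at 0.351 to 0.640 CPM in FMR1-KO. In standard fraction 5/6 Slc5a11 stood at 0.806 to 1.287 CPM in WT and at 0.377 to 1.904 CPM in FMR1-KO. The origin of its RPF reads was not tested. Cmah, the enzyme that makes the sialic acid Neu5Gc, stood at 5.44, 2.82 and 3.07 CPM in WT and at 0.30, 0.64 and 0.44 CPM in FMR1-KO. Arap3 ranged from 73.6 to 309 CPM in WT and from 4.14 to 6.12 CPM in FMR1-KO, and in the low nuclease pellet it took values of 4.38 to 326 CPM in WT and 3.74 to 311 CPM in FMR1-KO. Slc5a11, Grin3b and Cmah passed with DESeq2 and with all 4 low nuclease groups in the fit. In the low nuclease pellet Slc5a11 overlapped, at 59.8 to 82.1 CPM in WT and at 59.9 to 93.0 CPM in FMR1-KO. Grin3b overlapped there too, with a log2 fold change of 0.05. Cmah was lower there in each FMR1-KO library, with a log2 fold change of -2.47 that did not pass (adjusted p = 0.573, edgeR).

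Wdfy1, which encodes a FYVE-domain endosomal protein, was followed because earlier results of these data named it. It stood at 48.7, 47.9 and 49.9 CPM in WT and at 6.43, 7.25 and 18.8 CPM in FMR1-KO. FMR1-KO replicate 3 was the highest of its group, all 3 were below WT, and the log2 fold change of -2.18 did not pass (SE 0.431, adjusted p = 0.569, edgeR quasi-likelihood test). In the standard RNA-seq Wdfy1 fell by 2.29 on the log2 scale. Ddx3y, a Y-linked helicase gene, stood at 63.6, 65.0 and 57.5 CPM in WT and at 52.1, 33.4 and 42.0 CPM in FMR1-KO, a log2 fold change of -0.55 (adjusted p = 0.573, edgeR), and the Y-linked genes Eif2s3y, Uty and Kdm5d overlapped between genotypes. In the standard RNA-seq, by contrast, Ddx3y stood at 35.7 to 36.9 CPM in WT and at 0.060 to 0.137 CPM in FMR1-KO, so the sex make-up of that RNA-seq pool is a limit of every comparison with it.

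None of the 20 gene lists had a member that passed the test other than Fmr1. With DESeq2 13 list members passed, beside 198 of all 15739 genes, and the Darnell list alone held 759 tested genes. Among the 13 were Fmr1, Smc4, Sdhd, Ndufs3, Ndufs7, Mapk3 and Hnrnpa2b1. The share of list members that passed was not computed, so the 13 are not read as a result about the lists. The lists are described by their medians and by the number of members at an unadjusted p under 0.05, beside 697 higher (4.43%) and 648 lower (4.12%) among all genes.

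Cell cycle and DNA replication genes lay below 0 as a group. The median of 34 members was -0.31 on the log2 scale, 91.2% of them were below 0 against 50.1% of all genes, and 8 were lower and none higher at an unadjusted p under 0.05. Smc4, a condensin subunit, stood at 48.3, 46.8 and 42.6 CPM in WT and at 28.5, 25.5 and 34.8 CPM in FMR1-KO. Its groups did not overlap, with a log2 fold change of -0.63 (adjusted p = 0.569, edgeR quasi-likelihood test). Tpx2, a spindle assembly factor, stood at 51.8, 45.2 and 40.6 CPM in WT and at 34.6, 28.1 and 36.1 CPM in FMR1-KO. Cdk1, the kinase that drives mitosis, stood at 27.1, 24.6 and 27.9 CPM in WT and at 21.5, 17.3 and 21.2 CPM in FMR1-KO. Smc4, Tpx2 and Cdk1 were named after their values were seen. Mcm5, a replicative helicase subunit, went the other way by its mean, with FMR1-KO replicate 1 far above the rest, at 64.8, 51.9 and 43.9 CPM in WT and 276, 55.6 and 75.7 CPM in FMR1-KO.

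For each library, the median over the list of log2 CPM minus the member's WT mean was computed. For the cell cycle list it was 0.01, 0.08 and -0.15 in WT and -0.30, -0.54 and -0.09 in FMR1-KO, so the genotypes overlapped through FMR1-KO replicate 3. The list's median stayed between -0.45 and -0.20 (without FMR1-KO replicate 2) when each library was left out in turn. It was -0.06 in standard fraction 5/6, -0.07 in the low nuclease pellet and 0.30 in the standard RNA-seq, where WT and FMR1-KO whole brain were compared. Of 7 neural progenitor markers 4 were below 0, with a median of -0.25 on the log2 scale, and none had an unadjusted p under 0.05 (edgeR). Their sum, of which Fabp7 is the largest part, was 1328, 1003 and 1044 CPM in WT and 1256, 917 and 1065 CPM in FMR1-KO, with overlap. Pax6 had a log2 fold change of -0.31, Vim of -0.25 and Fabp7 of 0.03. The part of progenitor cells in the cell cycle values was not tested, and in such whole brain samples fewer cells of a type and less RNA per cell cannot be told apart.

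Nuclear-encoded respiratory chain genes lay above 0. The median of 75 members was 0.15, 18.7% were below 0, and 10 were higher and none lower at an unadjusted p under 0.05. Sdhd, a subunit of complex II, stood at 86.3, 78.6 and 76.4 CPM in WT and at 117, 105 and 110 CPM in FMR1-KO. Ndufs3, a core subunit of complex I, stood at 90.5, 78.8 and 84.3 CPM in WT and at 141, 109 and 152 CPM in FMR1-KO. Both were above WT in every FMR1-KO library, with log2 fold changes of 0.46 and 0.66, and neither passed; both were named after their values were seen. The 4 members of highest level, Atp5a1, Atp5b, Uqcrc1 and Atp5o (ENSMUSG00000116933), had log2 fold changes of -0.05, -0.05, 0.15 and -0.02. Library by library the list's median was 0.24, -0.14 and -0.12 in WT and 0.20, 0.14 and 0.22 in FMR1-KO, with WT replicate 1 above all FMR1-KO libraries. The list's median was 0.29 without WT replicate 1 and 0.09 without WT replicate 2, the ends of its range. The 7 tested genes encoded in mitochondrial DNA had a median of -0.42, which was -0.06 without WT replicate 2, -0.28 without FMR1-KO replicate 3, -0.66 without WT replicate 1 and -0.93 without FMR1-KO replicate 2.

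Immediate early genes, which are induced by neuronal activity, had a median of 0.24 over 20 members, with 15.0% below 0. Of these 2 were higher and none lower at an unadjusted p under 0.05. By library the list's median was 0.048, 0.115 and -0.076 in WT and 0.233, 0.297 and 0.042 in FMR1-KO, with overlap. Egr4, a zinc finger factor of this class, stood at 8.38, 8.44 and 7.09 CPM in WT and at 10.771, 10.683 and 11.028 CPM in FMR1-KO. Jund, an AP-1 subunit, stood at 40.0, 37.2 and 41.3 CPM in WT and at 49.4, 48.8 and 44.7 CPM in FMR1-KO. Neither pair of groups overlapped, neither gene passed, and Egr4 and Jund were named after their values were seen. Of the 4 members of highest level, Egr1 was above WT in every FMR1-KO library with a log2 fold change of 0.39 that did not pass. Jun stood at 93.2, 96.4 and 87.0 CPM in WT and at 93.5, 89.1 and 92.9 CPM in FMR1-KO, a log2 fold change of -0.01. Jun overlapped between genotypes, as did Nr4a2 (0.05) and Nr4a3 (0.14).

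The mTOR and ERK pathway, which carries growth factor signals to the translation machinery, had 5 members higher and 2 lower of 31 at an unadjusted p under 0.05, with a median of 0.09, which was 0.04 without WT replicate 1 and 0.04 without FMR1-KO replicate 3. By library its median was -0.05, -0.01 and -0.01 in the WT libraries and 0.08, 0.07 and 0.10 in the FMR1-KO libraries, with no overlap. Mapk3, the kinase ERK1, stood at 123, 120 and 125 CPM in WT and at 159, 154 and 154 CPM in FMR1-KO, a log2 fold change of 0.35 (adjusted p = 0.569, edgeR quasi-likelihood test). Akt1 stood at 81.2, 86.1 and 91.0 CPM in WT and at 108, 103 and 96.9 CPM in FMR1-KO. Both lay apart by genotype, and both were named after their values were seen. Map2k1 had a log2 fold change of 0.05 and Pik3r1 of -0.29, and neither passed.

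FMRP's own family and partners had a median of -0.22 over 10 members including Fmr1, with 3 lower and none higher at an unadjusted p under 0.05. Without FMR1-KO replicate 2 this median was -0.14. Fxr1, a paralog of FMRP, stood at 119, 112 and 112 CPM in WT and at 93.7, 81.2 and 97.8 CPM in FMR1-KO, a log2 fold change of -0.33 (adjusted p = 0.573, edgeR quasi-likelihood test). Fxr2, the other paralog, stood at 85.4, 90.0 and 95.9 CPM in WT and at 99.4, 87.7 and 96.3 CPM in FMR1-KO. Fxr1 lay below WT in every FMR1-KO library and Fxr2 overlapped. Tdrd3, which binds FMRP, stood at 52.9, 47.1 and 39.4 CPM in WT and at 38.1, 32.5 and 36.8 CPM in FMR1-KO. Fxr1, Fxr2 and Tdrd3 were named after their values were seen.

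Proteins of neuronal RNA granules had a median of -0.13 over 37 genes, and 73.0% were below 0. Without FMR1-KO replicate 2 it was -0.07. Hnrnpa2b1, an mRNA transport protein, stood at 1367, 1258 and 1235 CPM in WT and at 1053, 909 and 965 CPM in FMR1-KO, with no overlap and a log2 fold change of -0.40 that did not pass. Syncrip, an RNA-binding protein of granules, stood at 276, 242 and 216 CPM in WT and at 198, 160 and 188 CPM in FMR1-KO, also without overlap. Igf2bp1, an mRNA-binding protein of the zipcode type, had no order by genotype, at 1.71, 11.2 and 5.82 CPM in WT and at 119, 0.84 and 25.8 CPM in FMR1-KO. Syncrip and Igf2bp1 were named after their values were seen.

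The translation machinery and the cytoskeleton lay close to the median of all genes. The median was 0.04 over 79 cytosolic ribosomal proteins, -0.05 over 47 translation factors and 0.01 over 20 factors that sense or clear stalled ribosomes. It was 0.08 over 13 tubulins, -0.06 over 27 microtubule-associated and motor proteins and 0.02 over 27 actin and growth cone proteins. Of the stalling factors, tubulins, microtubule and actin genes, 0 members were at an unadjusted p under 0.05 in either direction by edgeR. With each library left out in turn these medians ranged from -0.04 to 0.11 for ribosomal proteins, from -0.13 to -0.01 for translation factors and from -0.02 to 0.08 for stalling factors. They ranged from 0.01 (without FMR1-KO replicate 3) to 0.12 for tubulins, from -0.14 (without WT replicate 3) to -0.04 for microtubule genes and from -0.06 to 0.11 for actin genes, so those of ribosomal, stalling and actin genes changed sign. Actb, cytoplasmic actin, stood at 7656, 7802 and 5899 CPM in WT and at 8512, 6222 and 6983 CPM in FMR1-KO. Map2, the dendritic microtubule protein and a known granule mRNA, stood at 3785, 3345 and 2035 CPM in WT and at 3006, 2316 and 2690 CPM in FMR1-KO. Both overlapped between genotypes.

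Synaptic genes also lay close to the median of all genes. Postsynaptic proteins had a median of 0.07 over 33 genes with 2 higher and none lower at an unadjusted p under 0.05, and presynaptic proteins had a median of 0.04 over 33 genes with none in either direction. The postsynaptic median was -0.06 without WT replicate 1, -0.02 without FMR1-KO replicate 2 and 0.14 without WT replicate 3. The presynaptic median was 0.00 without FMR1-KO replicate 3 and 0.09 without FMR1-KO replicate 1. By library it was -0.035, 0.024 and 0.045 in WT and 0.071, 0.073 and 0.062 in FMR1-KO, with no overlap. Camk2a, the synaptic calcium-dependent kinase, stood at 354, 364 and 317 CPM in WT and at 299, 433 and 442 CPM in FMR1-KO, with overlap.

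The mRNAs bound by FMRP were taken as the names of 2 CLIP lists, and those resistant to ribosome run-off as the names of a list of Shah. The Darnell list had a median of 0.05 over 759 genes, with 25 members higher and 8 lower at an unadjusted p under 0.05. The Maurin list had a median of 0.03 over 264 genes, with 3 higher and 2 lower. The run-off resistant list had a median of -0.06 over 186 genes, with 1 higher and 2 lower. All 3 medians changed sign in at least 1 setting when libraries were left out in turn, with ranges of -0.02 to 0.10, -0.05 to 0.07 and -0.15 to 0.04. The 3 medians in the low nuclease pellet were 0.00, 0.02 and -0.10. In standard fraction 5/6 they were -0.21, -0.27 and -0.25 with all libraries, and -0.02, 0.04 and 0.09 without the WT replicate 3 whose Fmr1 goes against its label, an alternative chosen after seeing the data.

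**Figure D4:**
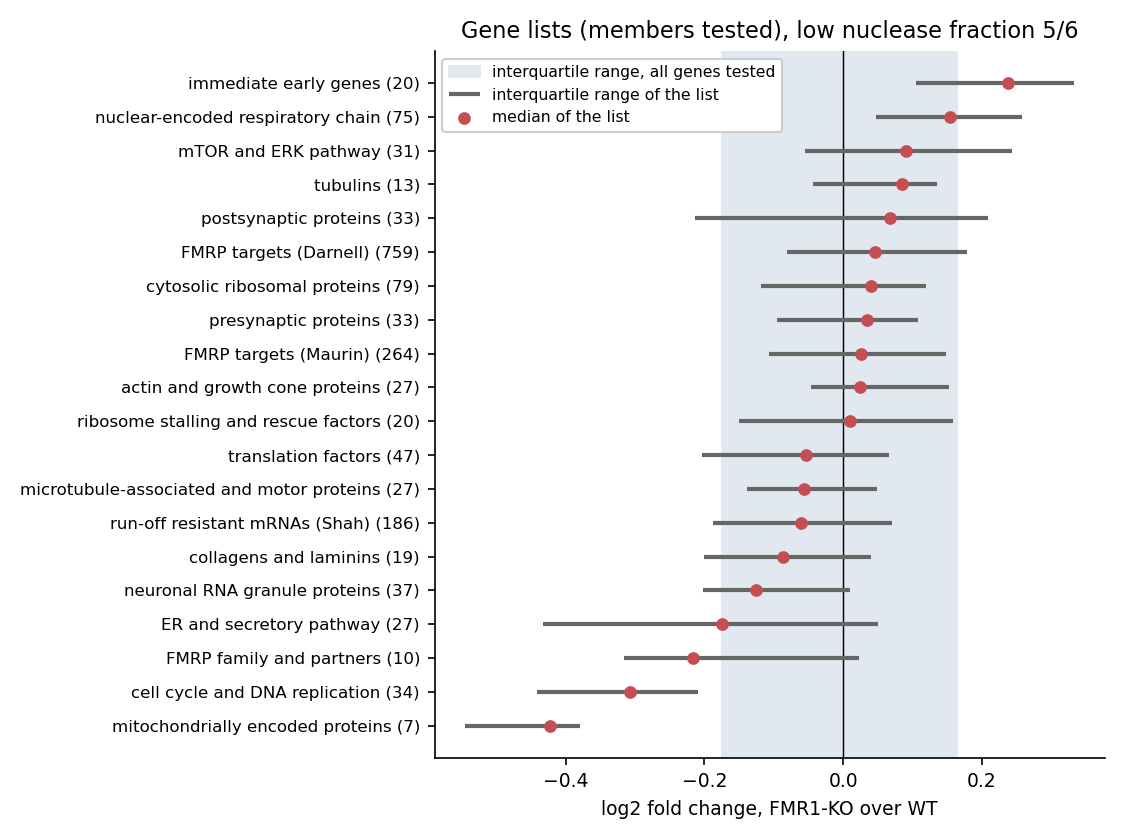
Median log2 fold change (FMR1-KO over WT) of each gene list in low nuclease fraction 5/6, with the interquartile range of its members as a bar and the number of tested members beside its name, next to all genes. The medians farthest from that of all genes are those of the mitochondrially encoded (-0.42), cell cycle (-0.31), immediate early (0.24), FMRP family (-0.22), secretory (-0.18) and respiratory chain (0.15) lists, while the lists of ribosomal proteins, tubulins and FMRP targets sit within 0.1 of it.

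The fold changes of low nuclease fraction 5/6 ran with the GC content of the transcripts. GC content was taken from the longest protein-coding transcript, for 15639 of the 15739 genes, and the genes were split into 5 classes of nearly equal size. The median log2 fold change was -0.16, -0.07, 0.00, 0.08 and 0.14 from the lowest class (18.1 to 44.4% GC) to the highest (56.2 to 76.5%). At an unadjusted p under 0.05 there were 27 genes higher and 328 lower in the lowest class, and 322 higher and 54 lower in the highest. The genes that are low at a nominal p were thus mostly AT-rich and those that are high mostly GC-rich.

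By library, the median of the highest class minus that of the lowest was -0.07, -0.01 and 0.06 on the log2 scale in WT and 0.26, 0.37 and 0.26 in FMR1-KO. The genotypes did not overlap, and the exact two-sided permutation p of 0.1 is the smallest that 3 against 3 allows. The same medians ran the other way in the other sets, from 0.08 in the lowest class to -0.10 in the highest in standard fraction 5/6 (0.07 to -0.05 without its WT replicate 3), from 0.05 to -0.04 in the low nuclease pellet and from 0.07 to -0.03 in standard RNA-seq. With an offset for GC content in the fit, an alternative added after the data were seen, 9 genes passed and 841 had an unadjusted p under 0.05, against 1345 without it. With it the cell cycle median was -0.29 and the respiratory chain median 0.14, near their values without it. The median moved from -0.42 to -0.22 for mitochondrially encoded genes, from 0.24 to 0.16 for immediate early genes, from -0.22 to -0.10 for the FMRP family and from -0.13 to -0.08 for granule proteins. It moved from 0.08 to -0.01 for tubulins, from 0.04 to -0.01 for ribosomal proteins, from 0.07 to 0.02 for postsynaptic proteins and from 0.05 to 0.00 for the Darnell list.

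**Figure D5:**
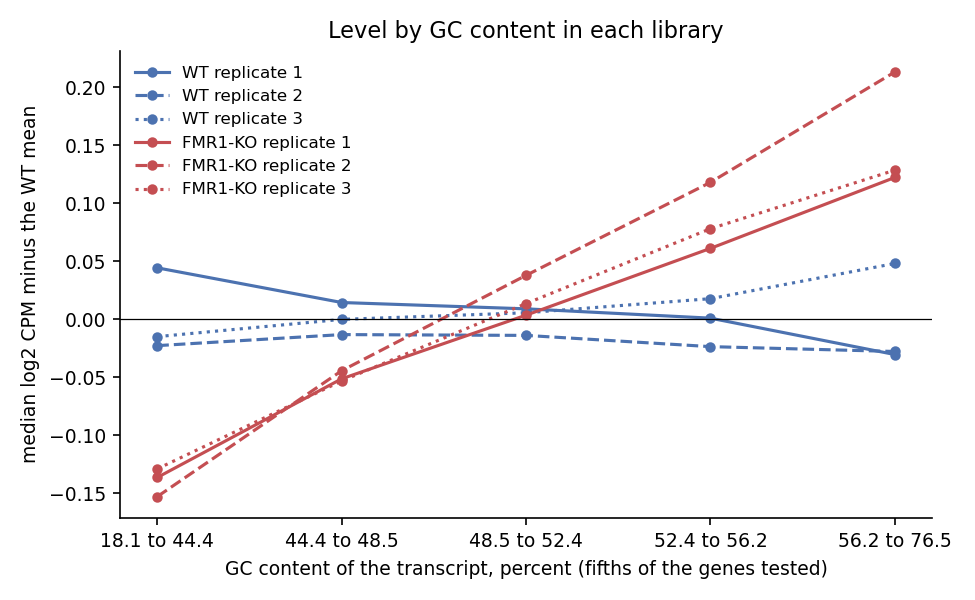
Median log2 CPM minus the WT mean, for genes in 5 classes of transcript GC content (percent, lowest to highest), with 1 line for each of the 3 WT and 3 FMR1-KO libraries of low nuclease fraction 5/6. The FMR1-KO lines climb by 0.26 to 0.37 from the lowest to the highest class, and the WT lines move by -0.07 to 0.06.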

How the data were processed

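RPFs of about 25 to 40 bases and whole brain RNA-seq were measured. Per the labels and the study's methods, the authors trimmed reads with Cutadapt 2.10, removed rRNA and ncRNA with Bowtie2 2.3.5, aligned to GRCm38 with STAR 2.7.8a, removed duplicates with Picard and SAMtools 1.19.2 and deposited raw counts per gene from featureCounts 2.2.0 (16614 genes). Strand setting and treatment of multiple hits are not given in the sources used here.

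From these deposited counts Cdk8 and 26 genes of other biotypes (GENCODE M21) were dropped, 20 genes with no match in that annotation were kept, low genes were removed with filterByExpr, libraries were scaled by TMM, and genotypes were compared with the quasi-likelihood test of edgeR 4.0.16 in R 4.3.3 (3 against 3, Benjamini-Hochberg adjusted p under 0.05). CPM uses the TMM-scaled library size, so 3 counts correspond to 0.0477 to 0.132 CPM. The SE is the log2 fold change divided by the square root of F. Interactions were fitted over both sets of libraries. Scripts were tested on simulated data with an assumed spread between libraries. There the main test recovered 8 of 100 genes changed 2-fold and 94 of 100 changed 4-fold. The interaction tests recovered 2 to 3 of 100 at 2-fold and 39 to 63 of 100 at 4-fold. Plots used matplotlib 3.10.9.

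Alternatives were DESeq2 1.42.0, limma voom 3.58.1, other scalings, filters and gene sets, a replicate block, all low nuclease groups in 1 fit, each library left out and, chosen after seeing the data, an offset for GC content and standard fraction 5/6 without its WT replicate 3. Members and lists were chosen with earlier results of these data known. Named genes were 10 preset genes, up to 12 genes past the threshold in each direction without overlap, filled to 10 by smallest p, and in each list members past the threshold or the 2 to 4 of highest CPM; others are said to be named after their values were seen. Xist was not analysed here.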

Additional observations from a re-analysis of the deposited data

Results flagged for a closer look

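The genotype effect differed past the threshold between sets of libraries for the following genes. Between low nuclease fraction 5/6 and the low nuclease pellet, 3 of 15929 genes (0.0188%) passed the edgeR quasi-likelihood interaction test: Fblim1 by -4.15, Spen by -2.24 and Adam12 by 3.36 on the log2 scale. Adam12, a membrane metalloprotease gene, stood at 2.33, 3.27 and 4.32 CPM in WT and 2.65, 4.37 and 2.92 CPM in FMR1-KO in fraction 5/6. In the pellet it stood at 43.2, 42.1 and 45.9 CPM in WT and at 3.34, 5.74 and 3.81 CPM in FMR1-KO. Adam12 fell in the pellet, whereas in fraction 5/6 the genotypes overlapped (adjusted p of the difference 0.0454, edgeR). This difference did not pass without WT replicate 2 (0.0765), FMR1-KO replicate 1 (0.0569) or FMR1-KO replicate 3 (0.0645), nor with library size alone (0.0843), the stricter filter (0.0510) or the replicate block (0.286), in the same edgeR test.

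Between the low and the standard nuclease preparation of fraction 5/6, Fblim1 alone passed, by -4.64 on the log2 scale.

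Between RPFs of low nuclease fraction 5/6 and standard RNA-seq, 14 of 16516 genes (0.0848%) passed, and Y-linked genes gave the largest values. The differences were 7.95 for Ddx3y, 13.05 for Eif2s3y, 8.56 for Uty and 10.44 for Kdm5d on the log2 scale. These are fitted values and no bounds: in the FMR1-KO RNA-seq libraries Eif2s3y had 0 counts in all 3, against 14.428 to 16.972 CPM in WT. In the RPF libraries the genotypes overlapped for Eif2s3y, Uty and Kdm5d. The sex make-up of the RNA-seq pools cannot be told apart from their genotype.

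The other differences between RPFs and RNA-seq that passed were -4.42 for Fblim1, -4.22 for Tmprss4, -3.67 for BC049352, -1.71 for Fmr1, -5.36 for Gm26992, -2.10 for Ankrd6, -2.33 for Spen, -4.91 for Arap3, 2.23 for Prkcq and 7.65 for Zpbp2. Gm26992 differed through RNA-seq, where it was higher in FMR1-KO by 5.53 on the log2 scale, against 0.20 in RPFs.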

How the results depend on the processing

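Of 2516 values of 140 named genes under the alternatives, 2437 stayed as reported, 35 newly passed, 17 no longer passed, 27 moved by more than the replicate spread and 0 reversed. The number of genes that passed was 7, and it was 198 with DESeq2, 17 with all 4 low nuclease RPF groups in the fit and 7 to 23 with each library left out. List members that passed numbered 1, and 13 with DESeq2, 2 with limma voom, 2 with the 4 groups, 2 with the GC offset and 1 to 2 with each library left out. With the replicate number as a block, 1 gene (Fblim1) and 0 list members passed, and Fmr1 had -3.57 on the log2 scale (adjusted p = 0.209, edgeR). Same-numbered libraries deviated together with r of 0.24, 0.03 and 0.17. Each WT library correlated best with the FMR1-KO library of its own number, whereas FMR1-KO replicate 2 correlated best with WT replicate 3 (r of 0.105). These values do not settle whether the numbers pair the samples, so the loss of calls with the block remains a limit.

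The interaction with the preparation had 1 gene, 2 with the block, 2 to 8 with each library left out (8 without WT replicate 3) and 16 without the WT replicate 3 of the standard preparation. That with the fraction had 3 genes, and Fblim1 alone with library size alone, with the stricter filter and with the block, and 1 to 10 with libraries left out. That with RNA-seq had 14 genes, 7 with the block, 21 to 49 with libraries left out and 0 against the RNA-seq of the low preparation, where 843 genes had an unadjusted p under 0.05 (edgeR). With the block, Fmr1 (adjusted p = 0.116), BC049352 (0.0930) and Spen (0.191) were among those that no longer passed the edgeR interaction with RNA-seq. The cause of these differences was not tested. At 3 counts or fewer per library, as for Hist1h4m in WT, counting error limits the fold.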

Other observations

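Genes of secretory and matrix proteins, not described above, gave no member past the threshold. The median log2 fold change was -0.18 over 27 genes of the endoplasmic reticulum and secretory pathway and -0.09 over 19 collagens and laminins, and these medians ranged from -0.38 to 0.03 and from -0.30 to 0.12 across the alternatives. Both were above 0 only without FMR1-KO replicate 1 and lowest without FMR1-KO replicate 2. Hspa5, the endoplasmic reticulum chaperone BiP, had a log2 fold change of -0.70 that did not pass.

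Some abundant genes differed more among libraries of 1 genotype than between genotypes. Tcf7l2, a Wnt pathway transcription factor, stood at 170, 14756 and 18057 CPM in WT and at 140, 91.5 and 16874 CPM in FMR1-KO. Pawr, a pro-apoptotic protein gene, stood at 4.35, 122 and 308 CPM in WT and at 3.68, 17054 and 62.8 CPM in FMR1-KO. Il10ra, an interleukin receptor gene 3817 bases from BC049352, stood near 0 CPM in WT and in FMR1-KO replicate 1 and at 171 and 143 CPM in FMR1-KO replicates 2 and 3. These 3 genes were named after their values were seen.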
